A study of Sus scrofa with 5 samples.

Results

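The cells described here were 1201 cecal cells of suckling piglets that carried high MHC class II transcripts together with CD1.1 or FLT3, out of 72701 barcodes with at least 200 detected genes. They were chosen by counts of unique molecular identifiers (UMIs, each standing for 1 captured mRNA molecule). A cell needed at least 20 UMIs of SLA-DRA and SLA-DQB1 together and at least 1 UMI of CD1.1 and FLT3 together. It could hold no XCR1, CLEC9A, MS4A1, CD79B or EPCAM, at most 1 UMI of FCN1 and at most 4 UMIs of C1QA, C1QB and C1QC together. These limits take out type 1 dendritic cells, B cells, epithelial cells, monocytes and macrophages by their best known transcripts, and the working name of what is left was cDC2-like antigen-presenting cells. Because measured counts chose the cells, the levels of these 13 genes describe the choice and are not results.

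The study followed the cecal mucosa of Large White piglets from birth to 3 weeks by droplet single-cell RNA sequencing. One library was made at each age, d0, d1, d7, d14 and d21 (0, 1, 7, 14 and 21 days), with cells of 5 piglets mixed in each, labelled male, and the piglets took maternal milk only. No group carried a treatment or an engineered allele, so age is the only difference in the labels. The mucosa was scraped and dissociated with EDTA and trypsin, so the cells captured were those that these steps released. With 1 library per age, the piglets cannot be told apart within a library, age cannot be told apart from library, and no test between ages was possible.

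Dendritic cells take up antigen, load peptides on MHC class II molecules and show them to CD4 T cells. Conventional dendritic cells depend on the FLT3 receptor and come as a type 1 line, marked by XCR1 and CLEC9A and driven by IRF8 and BATF3, and a type 2 line, which depends more on IRF4 and carries SIRPA and CD1 family molecules. In the gut, activated dendritic cells switch on CCR7 and leave for the draining lymph nodes, where they meet naive T cells.

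Both entry genes and the MHC class II genes have a place on the Sscrofa11.1 assembly in RefSeq. CD1.1, which presents lipid antigens, lies at chr4:91854055-91863875, and FLT3, the growth factor receptor of dendritic cells, at chr11:5370475-5455439. SLA-DRA and SLA-DQB1, an alpha and a beta chain of the pig MHC class II molecules, lie at chr7:24825037-24830650 and chr7:24969034-24977238. FCER1A, the alpha chain of the high-affinity IgE receptor, lies at chr4:91118867-91125448, near CD1.1, and MS4A2, the beta chain of the same receptor, at chr2:11400415-11420314. Pig MHC class II genes resemble each other closely, so reads of near-identical copies could be split between them.

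The d14 library held most of the CD1.1/FLT3 cells. There were 69 at d0, 62 at d1, 132 at d7, 744 at d14 and 194 at d21. Their share of barcodes was 0.453% at d0 (exact Clopper-Pearson 95% interval 0.353 to 0.573), 0.438% at d1 (0.336 to 0.562), 1.29% at d7 (1.08 to 1.52), 4.60% at d14 (4.28 to 4.93) and 1.15% at d21 (0.993 to 1.32). All intervals cover counting error only. In every library these barcodes outnumber the cells that the study reports, so the values are shares of barcodes, not of the study's cells. The first 2 libraries overlapped in their intervals, as did d7 and d21, and d14 stood above all the others. The likeness of d0 and d1 depended on the limits: among barcodes under 20% mitochondrial counts the shares were 1.11% at d0 and 0.553% at d1, and with EPCAM left out of the rule 0.598% and 0.933%, with d14 at 5.10% and 4.75%. On the log2 scale the share at d14 was 3.34 above d0 (counting interval 2.99 to 3.70) and 1.84 above d7 (1.57 to 2.10), and d21 was lower than d14 by a log2 ratio of -2.00 (-2.23 to -1.78). A fixed UMI limit admits deeper cells more easily, and median UMIs per barcode over all barcodes were 2859, 3005, 2340, 4121 and 2587 in the same order. With every barcode thinned to 2000 UMIs first, the shares became 0.529%, 0.687%, 1.32%, 3.63% and 1.07%, so d14 was still highest.

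The share looked different within the antigen-presenting compartment. Of the barcodes with at least 20 UMIs of SLA-DRA and SLA-DQB1 and no EPCAM, which numbered 135, 313, 664, 2971 and 547 from d0 to d21, the CD1.1/FLT3 cells made up 51.1%, 19.8%, 19.9%, 25% and 35.5%. The high share of d14 among all barcodes was therefore not seen over this denominator, in which d0 was highest. For comparison, 3 other classes were taken from the same compartment. C1Q cells had at least 5 UMIs of the complement genes C1QA, C1QB and C1QC, which mark macrophages, and numbered 35, 155, 31, 621 and 34. FCN1 cells had at least 2 UMIs of FCN1, a monocyte lectin, and numbered 6, 4, 121, 552 and 113. XCR1/CLEC9A cells had at least 1 UMI of the type 1 dendritic cell receptors and numbered 6, 21, 18, 322 and 82. All 4 classes had their largest number at d14.

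**Figure D1:**
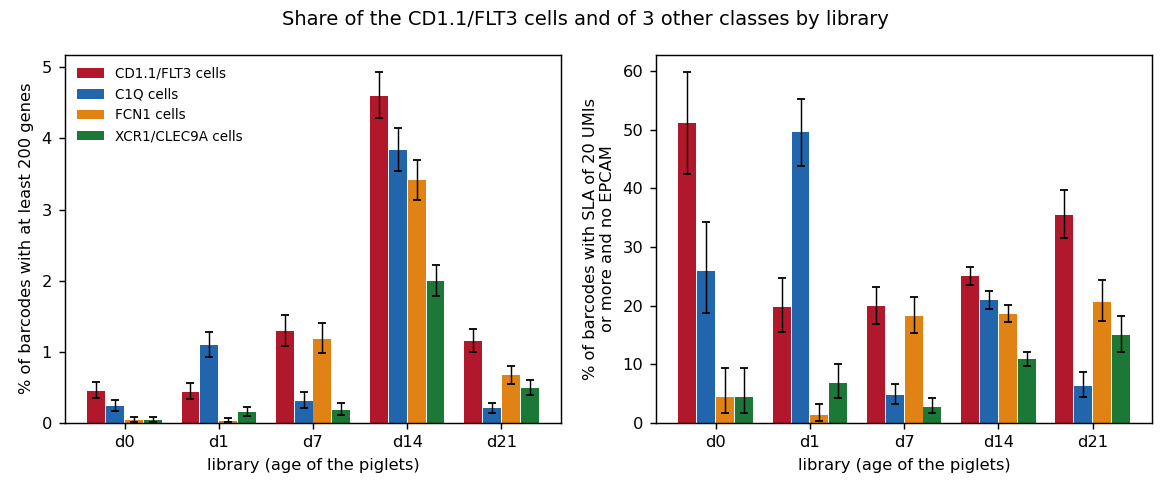
Share of the CD1.1/FLT3 cells and of the C1Q, FCN1 and XCR1/CLEC9A cells in each library, in % of barcodes with at least 200 genes (left) and in % of barcodes with at least 20 UMIs of SLA-DRA and SLA-DQB1 and no EPCAM (right); error bars are exact 95% binomial intervals for counting error. The CD1.1/FLT3 cells reached 4.60% of all barcodes at d14, whereas within the SLA-high barcodes they were highest at d0, at 51.1%.

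The rule let cells in by either gene. CD1.1 alone admitted 479 cells (39.9%), FLT3 alone 426 (35.5%) and both 296. CD1.1-only cells numbered 34 of the 69 at d0, 24 of 62 at d1, 66 of 132 at d7, 265 of 744 at d14 and 90 of 194 at d21, while FLT3-only cells were 15.9%, 22.6%, 28.8%, 40.9% and 30.4%. A single UMI of either gene was all that 296 cells had, while 538 cells met every other limit with none. Just inside the SLA limit were 26 cells with 20 to 24 UMIs, and 25 with 15 to 19 lay just outside. The other limits kept in 105 cells with 1 UMI of FCN1 and left out 32 with 2, and kept in 11 cells with 4 UMIs of the C1Q genes and left out 9 with 5. One UMI of XCR1 or CLEC9A alone left out 52 cells, of EPCAM 91 and of MS4A1 or CD79B 13.

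The entry genes were rare in cells that should lack them and that lay below the SLA limit of the rule. Only barcodes below that limit were counted as EPCAM or CD3 barcodes here. Doublets with SLA-high cells could thus be left out by choice, and the low shares may rest in part on that. CD1.1 or FLT3 was found in 0.536% of 12503 such barcodes with at least 3 UMIs of EPCAM, the epithelial adhesion molecule. Their median was 8279 UMIs per cell against 8796 in the CD1.1/FLT3 cells. Either gene was found in 2.31% of 13740 such barcodes with at least 3 UMIs of the CD3 genes of T cells (median 4660 UMIs). The pooled EPCAM value rests mostly on d0 and d1, with 11 of 6957 and 24 of 4201. From d7 to d21 the EPCAM barcodes had 13 of 395, 7 of 206 and 12 of 744. The CD3 barcodes had 0 of 286, 4 of 224, 89 of 2387, 154 of 4792 and 71 of 6051 from d0 on. The order of the 2 pooled shares thus did not hold in every library. Among antigen-presenting classes the picture was different, since CD1.1 was present in 27.6% of C1Q cells and 18.1% of FCN1 cells but in 2.67% of XCR1/CLEC9A cells. FLT3 followed another order, with 61.5% of XCR1/CLEC9A cells, 8.45% of C1Q cells and 4.65% of FCN1 cells. The CD1.1/FLT3 cells themselves carried CD1.1 in 64.5% and FLT3 in 60.1%. The rule asked these cells, and no other class, for 1 UMI of either gene. Their own shares, here and after thinning, therefore describe the choice and are not results. After thinning each cell to 2000 UMIs, which left out 31 of the CD1.1/FLT3 cells, 29 C1Q cells, 1 FCN1 cell, 7 XCR1/CLEC9A cells, 943 EPCAM and 1226 CD3 barcodes as too shallow, either gene was found in 57.9%, 16.6%, 9.31%, 21%, 0.0865% and 1.09% of those classes.

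The cells were deeper and had less mitochondrial RNA than the rest of their libraries. Their median UMIs were 4725 at d0, 5738 at d1, 8725.5 at d7, 9552 at d14 and 8365.5 at d21, so the first 2 libraries were the shallowest. Summed over cells, the counts were 320028, 361717, 1188155, 7386460 and 1699782. Mitochondrial transcripts took 6.24%, 6.06%, 5.31%, 3.86% and 4.51% of the counts, against 23.7%, 11%, 8.95%, 5.51% and 7.94% over all barcodes. Levels below are summed UMIs per 10000 counts of the cells, a scale that compares libraries and classes for 1 gene, and 10000 counts are about the content of 1 deep cell. A gene with no UMI could still have had a level of up to 0.0937 at d0, 0.0829 at d1, 0.0252 at d7, 0.00406 at d14 and 0.0176 at d21, the level of 3 counts.

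RNA of other cell types was found in some of the cells, and no doublets were removed. At least 3 UMIs of the CD3 genes were found in 46 of the cells at d14 and 18 at d21, at least 10 UMIs of the collagens COL1A1, COL1A2 and COL3A1 in 34 at d14, and 1 cell at d7 held 2212 UMIs of HBB, the beta globin of red cells. In all 115 cells passed such a limit, 0, 5, 10, 79 and 21 from d0 to d21. Barcodes were also shared between libraries, 591 times over the 10 pairs of libraries, and 14 of the CD1.1/FLT3 cells had such a barcode, none of them with a CD1.1/FLT3 cell on the other side.

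The working name was checked against its markers. CST3, which encodes the protease inhibitor cystatin C and is abundant in dendritic cells, stood at 95.9, 139, 47.3, 38.2 and 66.7 per 10000 from d0 to d21, against 1.01 to 9.87 in all other barcodes. PLD4, a lysosomal nuclease of dendritic cells, was steady at 3.69, 3.54, 3.48, 3.53 and 2.77, against 0.0356 to 0.714. Thus both markers that the rule had not used were above the rest of each library. They did not mark the cells off from every class most like them: by the edgeR test described below neither passed as higher than in C1Q or XCR1/CLEC9A cells, CST3 was lower than in the latter, and both were higher than in FCN1 cells. SPI1, the master regulator of myeloid cells, was at 3.19, 5.28, 5.93, 6.70 and 5.45, against 0.0368 to 1.80 elsewhere. Of the type 2 genes, FCER1A was at 1.78, 0.829, 0.816, 1.2 and 2.54 per 10000 from d0 to d21. IRF4 was low, at 0.125, 0.249, 0.261, 0.183 and 0.406. CLEC10A, a lectin of human type 2 cells, had no UMI in the cells and 1 in all other barcodes, so nothing is read from it. Set beside the other classes, the type 2 genes gave mixed counts, and some groups of the cells lacked them, as described further on, so the cells are called CD1.1/FLT3 cells here.

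MHC class II genes that the rule had not used were abundant in every library. CD74, the invariant chain that guides class II assembly, was at 178, 171, 179, 178 and 164 per 10000 from d0 to d21. SLA-DQA1, an alpha chain, was at 90.3, 112, 81.1, 83.5 and 60.6. Of the class II list, 1 gene was past 2-fold between consecutive libraries: IFI30, the lysosomal thiol reductase that opens antigens for loading, at 3.41 at d0 and 9.29 at d1. It was 1 of 13 list genes with enough counts in that pair, beside 4.06% of all genes higher and 1.95% lower. In the later pairs it was 0 of 16, beside 1.06% to 9.2% of all genes either way.

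The first comparison asked how the cells differed from C1Q cells of the same libraries. Counts were summed per library and class and tested with edgeR's quasi-likelihood F test with the library as a block, over 5 libraries and 5835 genes, and p-values were adjusted by the Benjamini-Hochberg method over all of them (edgeR is a package for count data). At an adjusted p under 0.05, 364 genes were higher in the CD1.1/FLT3 cells (6.24% of those tested) and 581 lower (9.96%), 16.2% in all. Since a library is 1 pool of piglets, these p-values rest on how the difference between the classes varied across libraries of different age, not across piglets. The d14 library weighed most, and without it 123 genes were higher and 241 lower.

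FCER1A was the clearest of the genes that were higher. Its level in the CD1.1/FLT3 cells was 1.78 at d0, 0.829 at d1, 0.816 at d7, 1.2 at d14 and 2.54 at d21, and in C1Q cells 0, 0.0107, 0.162, 0.123 and 0. The 2 sets of libraries did not overlap, and the log2 fold change was 3.81 ± 0.40 (SE, n = 5 libraries, edgeR quasi-likelihood adjusted p = 6.01e-05). MS4A2, which assembles with FCER1A in the IgE receptor, was at 5.41, 3.57, 4.75, 5.45 and 5.22 against 1.40, 0.322, 1.81, 1.78 and 2.46, again without overlap (log2 fold change 1.79 ± 0.26, edgeR adjusted p = 0.000594). Both genes are known from mast cells and basophils, and FCER1A is also in the type 2 dendritic cell list used here. KIT, a receptor of mast cells, was at 0.0312, 0.111, 0.185, 0.226 and 0.371. The 7 genes of the mast cell and basophil list in the matrix summed to 7.22, 4.67, 5.81, 6.97 and 8.18, with MS4A2 the most abundant each time. The mast cell protease CPA3 had no UMI in these cells or in any other barcode, so its count of 0 does not bear on what the cells are.

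CD52, a small surface glycoprotein of leukocytes, had the largest fold change of the named genes. It stood at 26.7, 48.5, 25.03, 24.3 and 19.8 in the CD1.1/FLT3 cells and at 0.401, 0.644, 3.43, 2.46 and 3.22 in C1Q cells (log2 fold change 3.87 ± 0.47, edgeR adjusted p = 0.000166). S100A4, a calcium-binding protein of motile cells, was higher by 1.86 ± 0.30, the actin-binding genes CNN2 and ACTN1 by 1.76 ± 0.28 and 1.73 ± 0.28, and the growth factor AREG by 1.76 ± 0.38. ANKRD37, DUSP5 and NR4A3 completed the 10 genes named by size. SLA-DOB, which tunes peptide loading on class II, was at 0.344, 0.774, 0.825, 0.684 and 0.694 against 0.0668, 0.0107, 0.292, 0.109 and 0.0362 (log2 fold change 2.80 ± 0.35, edgeR adjusted p = 0.000213). Of the 16 class II genes tested it was the 1 that was higher and 4 were lower, beside 6.24% and 9.96% of all genes. The most abundant did not pass the test, with CD74 at 0.10 ± 0.12 and SLA-DQA1 at 0.13 ± 0.13.

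Macrophage genes led what was lower, which was 9.96% of all genes tested. Of the 12 macrophage-list genes tested that the rule had not used, 11 were lower and none higher, with a median log2 fold change of -3.19 against 0.00 over all genes. MS4A7, a macrophage membrane protein, was at 0, 0, 0.0252, 0.0663 and 0.0412 in the CD1.1/FLT3 cells and at 1.2, 1.56, 0.194, 1.68 and 0.832 in C1Q cells (log2 fold change -4.70 ± 0.32, edgeR adjusted p = 2.78e-06). CD163, the haemoglobin scavenger receptor, was lower by a log2 fold change of -4.44 ± 0.22, SELENOP, a selenium carrier, of -3.59 ± 0.39, and LGMN, a lysosomal protease, of -3.48 ± 0.40. The C1Q genes had told the classes apart, so the macrophage list is not independent of the choice of cells. CSF1R, the macrophage growth factor receptor, was lower too but not absent, at 2.19, 1.71, 1.41, 2.55 and 1.21 against 8.28, 7.56, 4.70, 9.73 and 4.85. The lowest C1Q library was still above the highest CD1.1/FLT3 library.

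Sensing and inflammatory genes were also lower than in C1Q cells, beside 9.96% of all genes tested that were lower and 6.24% higher. Of 12 pattern-recognition genes tested, 11 were lower, among them TLR4, the endotoxin receptor (-1.66 ± 0.23), and the inflammasome sensor NLRP3 (-0.95 ± 0.20). Of 18 cytokine and chemokine genes, 10 were lower and none higher, with IL10, the regulatory cytokine of gut macrophages, at 0.156, 0.0276, 0.0757, 0.187 and 0.212 against 1.54, 1.94, 0.454, 0.678 and 0.832 (log2 fold change -2.47 ± 0.32, edgeR adjusted p = 0.00026). Interferon-response genes were on the same side, with 14 of 20 lower, and IFI6 as an example at -1.68 ± 0.28.

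**Figure D2:**
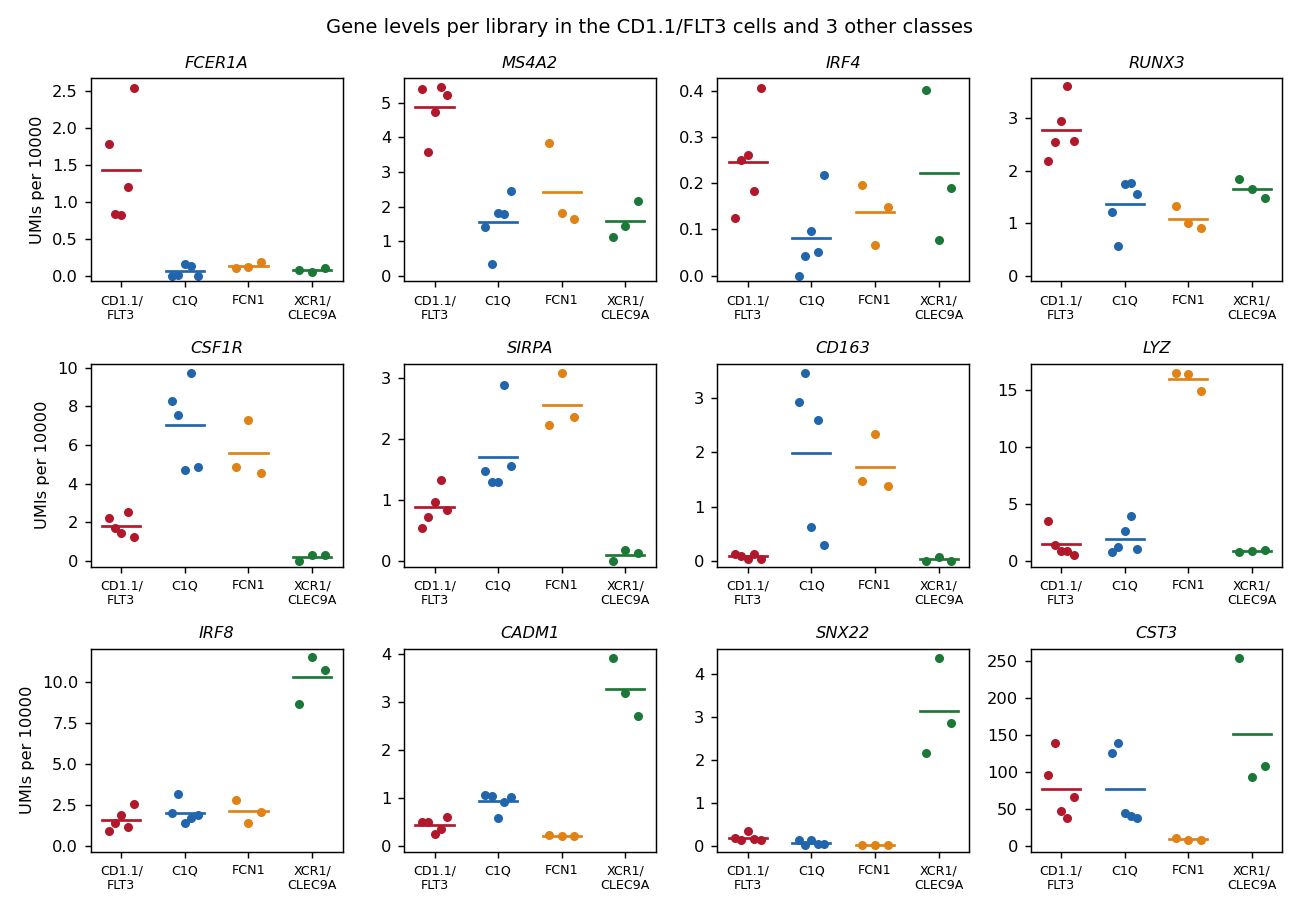
Levels of 12 genes (summed UMIs per 10000 counts) in the CD1.1/FLT3 cells, C1Q cells, FCN1 cells and XCR1/CLEC9A cells; each point is a library with at least 20 cells of the class used in the comparison, in order of age within a class, and the line is the mean over those libraries. FCER1A is 0.816 or more in every library of the CD1.1/FLT3 cells and at most 0.180 in the others, while CST3 overlaps between the CD1.1/FLT3 and the C1Q cells.

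The next comparison, with FCN1 cells, covered d7, d14 and d21, the libraries with at least 20 cells of both classes, and 8283 genes. By edgeR's quasi-likelihood test, 1014 genes were higher in the CD1.1/FLT3 cells (12.2%) and 1288 lower (15.5%), 27.8% in all. Without d14 the counts were 693 and 830. All 15 monocyte-list genes tested were lower, with a median log2 fold change of -4.49 against 0.01 over all genes. FCN1, itself a monocyte gene, had told the classes apart, so this list is not independent of the choice of cells. LYZ, lysozyme, was at 0.850, 0.875 and 0.529 in the CD1.1/FLT3 cells and at 16.5, 16.3 and 14.9 in FCN1 cells (log2 fold change -4.49 ± 0.13, n = 3 libraries, edgeR adjusted p = 2.52e-08). The calgranulins S100A8, S100A9 and S100A12, antimicrobial proteins of monocytes and neutrophils, were lower by log2 fold changes of -6.98, -5.86 and -6.85. SAA3, an acute-phase protein, was lower by -6.74 ± 0.26 and CD14, the co-receptor for endotoxin, by -4.77 ± 0.17. Of the macrophage genes 10 of 13 were lower and 1, MRC1, was higher.

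Several class II and dendritic genes lay on the other side. In the class I list, however, 10 of 18 genes were lower and 2 higher, beside 15.5% and 12.2% of all genes. CST3 was at 47.3, 38.2 and 66.7 against 10.8, 8.46 and 7.41 (log2 fold change 2.41 ± 0.19, edgeR adjusted p = 6.04e-06). In the class II list 9 of 16 genes were higher and 4 lower, with CD74 at 179, 178 and 164 against 59.9, 76.5 and 53.2, and CIITA, the class II transactivator, higher by 1.29 ± 0.17. Both classes had to pass the same SLA limit, so the gap in these genes lies above that limit. FCER1A was at 0.816, 1.2 and 2.54 against 0.102, 0.121 and 0.180 (log2 fold change 3.32 ± 0.17, edgeR adjusted p = 4.29e-07). IL4I1, an amino acid oxidase that dampens T cells, had the largest fold change among the genes named by size, at 4.10, 2.86 and 1.42 against 0.0744, 0.141 and 0.0529 (log2 fold change 4.60 ± 0.22). RAMP1, a subunit of the receptor for the neuropeptide CGRP, followed at 1.51, 1.44 and 1.31 against 0.195, 0.119 and 0.0318. The mannose receptor MRC1, better known from macrophages, was higher by 2.57 ± 0.24.

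Of 21 mature dendritic cell genes tested, 11 were higher than in FCN1 cells and 3 lower, beside 12.2% and 15.5% of all genes. Those higher included LAMP3, a lysosomal protein of mature dendritic cells (5.78 ± 0.37), CCL17, which attracts T cells through CCR4 (4.15 ± 0.56), and CCR7 (1.85 ± 0.21). Much of the CCR7 and CCL17 RNA lay in few cells, since 57 of the 1201 cells, described below as group 7, held 721 of the 1129 UMIs of CCR7 and 285 of the 481 of CCL17. In the cell division list 17 of 18 genes were higher and none lower, for example MKI67 at 1.57 ± 0.22. Of its 329 UMIs, 196 lay in 46 cells (group 8) and 85 in 76 cells (group 6), most of the latter with RNA of other cell types. Interferon-response genes were lower in 22 of 25, and CXCL10, a chemokine that interferons induce, was at 2.81, 1.70 and 3.04 against 9.62, 10.4 and 16.6. In cytokines and chemokines as a whole 14 of 25 were lower and 4 higher.

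XCR1/CLEC9A cells, the closest relatives by label, were compared at d1, d14 and d21 over 7968 genes. With edgeR's quasi-likelihood test 705 genes were higher in the CD1.1/FLT3 cells (8.85%) and 494 lower (6.2%), 15% in all. The counts dropped to 210 and 141 without d14 and to 352 and 272 without d21. Type 1 genes were lower almost throughout: of 11 tested that the rule had not used, 10 were lower and none higher, with a median of -2.00 against 0.02 over all genes. XCR1 and CLEC9A, which are type 1 genes, had set these classes, so this list too depends on the choice of cells. C4H1orf54 was at 0.276, 0.0975 and 0.112 in the CD1.1/FLT3 cells and at 8.25, 4.58 and 4.50 in XCR1/CLEC9A cells (log2 fold change -5.30 ± 0.20, edgeR adjusted p = 2.88e-14). IRF8, the master factor of type 1 cells, was at 1.41, 1.15 and 2.54 against 8.65, 11.5 and 10.8 (log2 fold change -2.61 ± 0.19). BATF3, its partner, was lower by -1.90 ± 0.19, the adhesion molecule CADM1 by -2.72 ± 0.20, SNX22, a sorting nexin, by -4.60 ± 0.20, and WDFY4, needed for cross-presentation, by -2.00 ± 0.16.

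Of 13 type 2 genes tested, 7 were higher than in the XCR1/CLEC9A cells and 1, CLEC7A, was lower, beside 8.85% and 6.2% of all genes. In the monocyte list 5 of 8 genes were higher and 1 lower, and in the macrophage list 5 of 9 were higher and 2 lower. FCER1A was at 0.829, 1.2 and 2.54 against 0.0801, 0.0467 and 0.108 (log2 fold change 4.66 ± 0.24, edgeR adjusted p = 6.47e-12), and so stood in the named genes of all 3 comparisons. SIRPA, the type 2 surface marker that binds CD47, was at 0.719, 1.33 and 0.835 against 0, 0.181 and 0.122 (log2 fold change 2.97 ± 0.22, edgeR adjusted p = 2.75e-09). CX3CR1, the fractalkine receptor (3.09 ± 0.31), CD207, langerin (3.20 ± 0.49), and FCGR2B, an inhibitory Fc receptor (1.76 ± 0.19), were on the same side. CD207 rested on the d14 library, without which its adjusted p was 0.0806 by edgeR. CSF1R was at 1.71, 2.55 and 1.21 against 0, 0.291 and 0.284, and MRC1, IGSF6, LST1, CFP, IL1B and CXCL2 were other named genes that were higher. The CST3 level went the other way, at 139, 38.2 and 66.7 against 255, 93.7 and 108 (log2 fold change -0.85 ± 0.08).

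The type 2 list gave mixed counts against the other classes. Of 10 genes tested 3 were higher and 2 lower than in C1Q cells, where 6.24% and 9.96% of all genes were, and of 12 genes 4 were higher and 5 lower than in FCN1 cells, where 12.2% and 15.5% were. FCER1A, described above, IRF4 and RUNX3 of that list, and GPR183 of the homing list, were higher than in all 3 classes. IRF4, the factor of type 2 dendritic cells, was higher by 1.70 ± 0.29 than in C1Q cells, by 1.1 ± 0.24 than in FCN1 cells and by 1.09 ± 0.28 than in XCR1/CLEC9A cells (edgeR adjusted p = 0.00154, 0.00587 and 0.00926). Its counts were low, at d1 the XCR1/CLEC9A cells had the higher level (0.401 against 0.249), and the call against XCR1/CLEC9A cells was lost without d14 (edgeR adjusted p = 0.507) or without d21 (0.137), and that against FCN1 cells without d14 (0.0663). RUNX3, another factor of type 2 cells, was at 2.19, 2.54, 2.95, 3.60 and 2.57 per 10000 and above each class by 1.08 ± 0.20, 1.45 ± 0.13 and 0.98 ± 0.16, the last of them not past the test without d14 (edgeR adjusted p = 0.0886). GPR183, the oxysterol receptor that positions dendritic cells, was higher by 0.68 ± 0.18, 0.99 ± 0.15 and 0.90 ± 0.16. Its call against C1Q cells was lost without d0, d1 or d7 (edgeR adjusted p = 0.0571, 0.0596 and 0.0761), and that against XCR1/CLEC9A cells without d21 (0.081). SIRPA, in contrast, was lower than in C1Q cells (-0.95 ± 0.16) and FCN1 cells (-1.37 ± 0.11). CCR6, a receptor that draws cells to the epithelium over lymphoid follicles, was higher than in FCN1 cells (3.12 ± 0.28) and XCR1/CLEC9A cells (3.51 ± 0.32) and at 0.92 ± 0.31 against C1Q cells, where its edgeR adjusted p was 0.0671.

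**Figure D3:**
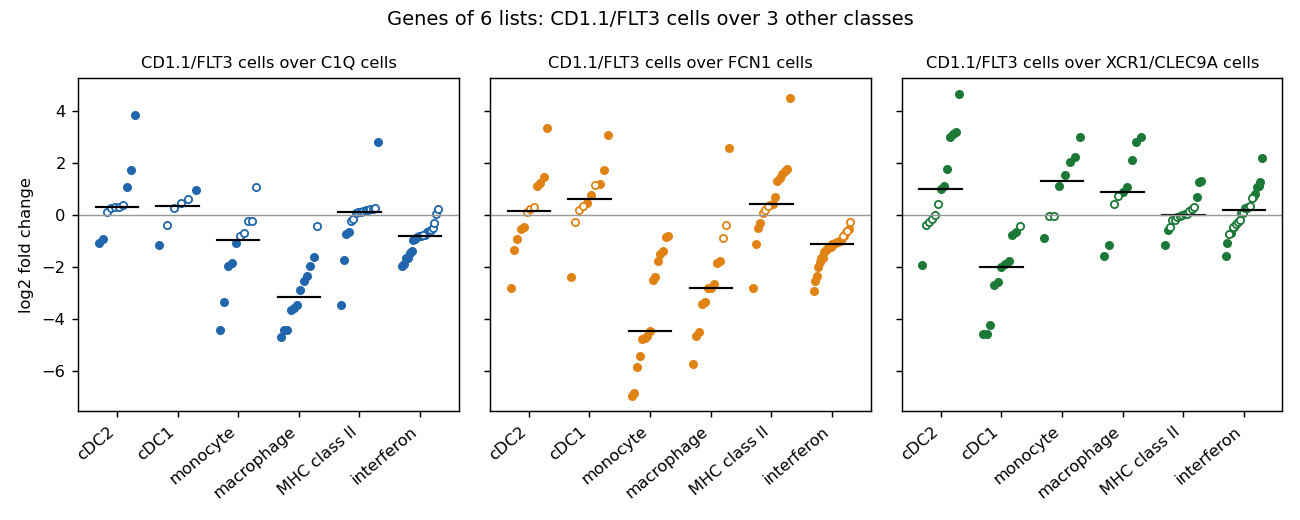
Log2 fold change of the CD1.1/FLT3 cells over C1Q, FCN1 and XCR1/CLEC9A cells for the tested genes of 6 lists; each point is a gene, filled where the edgeR adjusted p is under 0.05, and the bar is the list median. Macrophage genes have a median of -3.19 against C1Q cells, monocyte genes of -4.49 against FCN1 cells and type 1 dendritic cell genes of -2.00 against XCR1/CLEC9A cells.

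The CD1.1/FLT3 cells were not uniform. Clustering on 1000 variable genes, with the 13 rule genes left out, gave 9 groups of 41 to 435 cells, numbered here by size. The clusters were made from the genes that describe them, so what follows carries no test. Group 1 (435 cells) led with the Fc receptors FCGR2B at 3.35 per 10000 (1.12 in the other cells) and FCGR3A at 9.67 (3.63), with CSF1R at 3.73 (1.39), MS4A4A at 0.838 (0.189) and the interferon-induced ISG15 at 8.85 (3.34). It also held the highest MS4A2 of the groups, 8.60, with CD1.1 at 4.58. The monocyte list summed to 16.4 (7.33 in the other cells), the highest of the groups, and the macrophage list to 11.9 (6.67). The type 2 list summed to 14.2 (10.7), so it set the group apart less than those 2 lists, which go against the working name. CCR2 and CD68 were among its 10 leading genes. HBB headed its list by fold, with a UMI in 4.60% of its cells and most of the HBB from the 1 cell at d7. Group 2 (195 cells) was led by immediate-early and inflammatory genes: CXCL2 at 5.85 (1.12), KLF4 at 2.95 (0.607), IL1B at 1.36 (0.248), FOSB at 9.20 (2.35) and CD83 at 6.05 (1.65). Its summed level of stress and dissociation genes was 374 per 10000, the highest of the groups. FCER1A was highest here too, at 2.25.

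Group 3 (147 cells) also went against the working name. It was led by SELENBP1, a selenium-binding protein, at 6.12 (0.215 in the other cells) and CCDC80, a matrix protein, at 3.71 (0.135), and it held LTB, lymphotoxin beta, at 6.91 (0.520), PIGR, the carrier of secretory IgA, at 2.33 (0.135), PRDM16 at 0.903 (0.0281) and BLK, a Src family kinase, at 1.69 (0.137). LTB was found in 71.4% of its cells. FLT3 alone had admitted 127 of the 147 cells, which is to say that these held no UMI of CD1.1. IRF4 was at 0.0149, FCGR2B at 0.0448 and CSF1R at 0.209, each the lowest of the 9 groups. ID2, the repressor shared by dendritic and innate lymphoid cells, was the highest of the groups at 23.8, while SPI1 was at 7.80 and SLA-DQA1 at 58.9. CD3E, a chain of the T cell receptor complex, was at 0.142, against 3.82 in group 6. At d14, which held 116 of the cells, LTB stood at 7.31.

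Group 5 (89 cells) was also admitted mostly by FLT3, in 77 of its cells alone. It led with PCP4, a calmodulin regulator, at 2.87 (0.163), WNT8A at 0.566 (0.0150), ALOX5, the first enzyme of leukotriene synthesis, at 1.14 (0.123), CCR9, the small-bowel homing receptor, at 0.681 (0.0960) and CCND2 at 3.29 (0.834). BATF3 was at 3.49 and IRF8 at 0.136, the lowest of the groups, and RUNX3 was the highest, at 5.14. In 72 of its cells the library was d14.

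Group 7 (57 cells) held the genes of mature migratory dendritic cells. CCR7 was at 17.0 (0.387), FSCN1, the actin bundler of mature dendritic cells, at 12.6 (0.254), CCL17 at 6.71 (0.186), CD200 at 4.33 (0.112), MARCKSL1 at 12.4 (0.527), IL4I1 at 20.6 and FABP5, a fatty acid carrier, at 42.3 (1.02). Of its 10 leading genes 5 belonged to the mature migratory list, whose summed level was 130 per 10000 against 7.98 to 19.7 in the other groups. IL12B, a subunit of IL-12, was at 1.18 and at or under 0.0169 elsewhere. CD40, which receives T cell help, was at 7.58. BATF3 at 9.39 and SNX22 at 2.31 (0.0845), genes of the type 1 list, were also highest in this group, and C4H1orf54 was at 1.91 (0.0399), although XCR1 and CLEC9A are 0 in all the cells by rule. FCER1A, at 0.259, and MS4A2, at 0.377, were the lowest of the groups. FLT3 alone had let in 44 of the cells, and 16 came from d7, 29 from d14 and 12 from d21.

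Group 4 (115 cells) was nearly all newborn. It took in 60 of the d0 cells and 52 of the d1 cells, 87.0% and 83.9% of those libraries, and 3 cells of d7 and d14 together. Epithelial transcripts were among its leading genes, with KRT8, a keratin of simple epithelium, at 1.17 (0.104), TFF3, a goblet cell peptide, at 3.06 (0.139) in 22.6% of its cells and AGR2 at 1.54 (0.0955) in 5.22%, beside DISP2 at 3.47 (0.106) and PLAUR, the urokinase receptor, at 3.18 (0.293). KRT8 in all other barcodes was 23.6 at d0 and 16.6 at d1 against 2.31 at d14, and its part in the group was not tested. CST3 was highest in this group, at 128. A group that is mostly 2 libraries cannot be told apart from those libraries.

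Groups 6, 8 and 9 stood out for transcripts of T cells, of division and of stroma. Group 6 (76 cells) led with the cytotoxic genes GNLY at 7.43 (0.317) and CTSW at 3.73 (0.133), with CD3E at 3.82 (0.142) and CCL5 at 51.8 (4.51), and 57 of its cells were among those with RNA of other cell types. Group 9 (41 cells) led with COL3A1 at 26.8 (0.218), CXCL14 at 62.2 (0.672) and COL1A1 at 8.49 (0.0571), and 38 of its cells were among them. Group 8 (46 cells) led with TOP2A at 9.47 (0.270), UBE2C at 8.54 (0.294), CENPF at 7.23 (0.354) and MKI67 at 3.38 (0.128), and 7 of its 10 leading genes were in the division list. It was spread over d7 (3 cells), d14 (29) and d21 (13), with 1 cell from d0. The part of doublets in groups 6 and 9 was not tested.

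**Figure D4:**
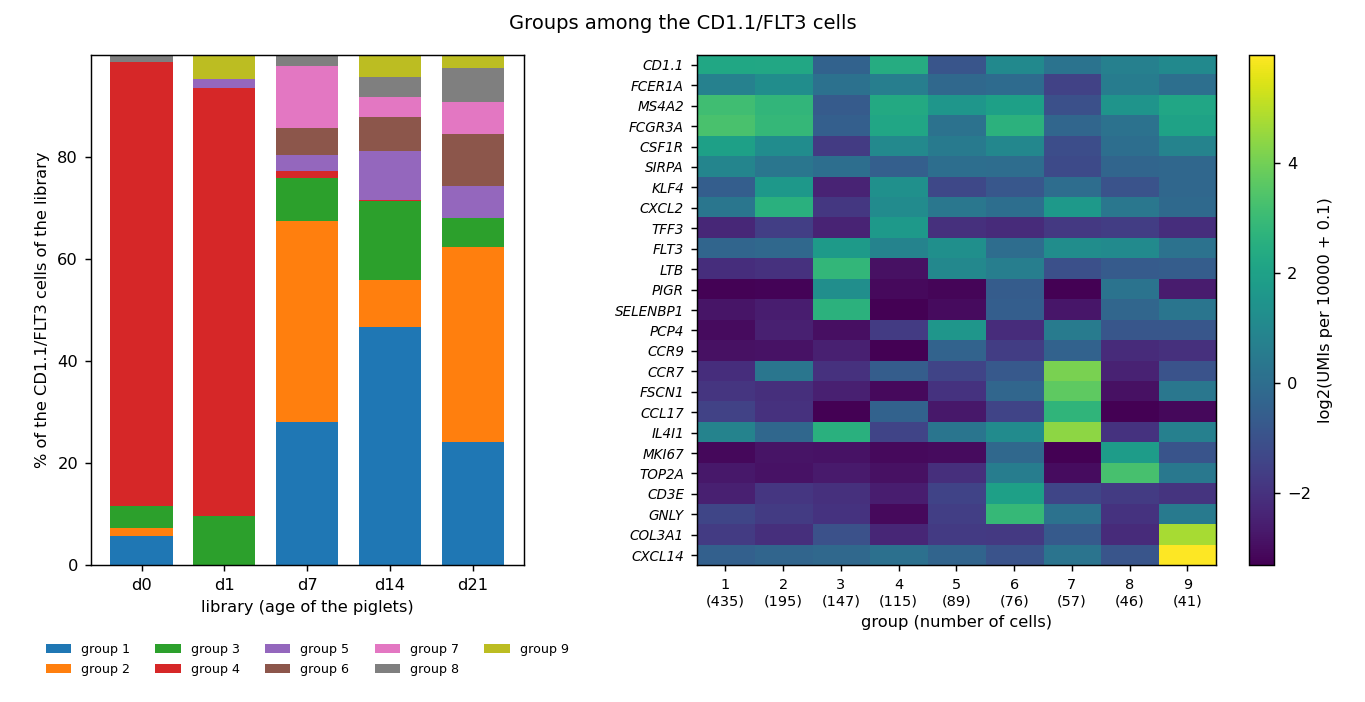
Left, share of each of the 9 groups among the CD1.1/FLT3 cells of each library, in %; right, level of 25 genes in each group on the scale log2(UMIs per 10000 + 0.1), with the number of cells below the group number. Group 4 holds 87.0% of the d0 cells and 83.9% of the d1 cells, and LTB, PIGR and SELENBP1 are highest in group 3 and CCR7, FSCN1, CCL17 and IL4I1 in group 7.

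Levels between consecutive libraries were compared as ratios, with 0.1 per 10000 added to both levels, over genes with at least 20 UMIs in the pair. Past 2-fold is a size here, with no test behind it. From d0 to d1, 144 genes were past 2-fold higher and 69 lower of 3545 (4.06% and 1.95%, 6.01% in all). With mitochondrial and ribosomal genes out of the counts they were 133 and 110, so the split of 67.6% higher became 54.7%. From d1 to d7 there were 419 and 168 of 6380 (6.57% and 2.63%, 9.2% in all), with the median of all genes shifted by 0.15, and from d7 to d14 there were 94 and 50 of 10542 (0.892% and 0.474%, 1.37% in all). From d14 to d21 there were 86 and 27 of 10654 (0.807% and 0.253%, 1.06% in all). Fewer counts at d0 and d1 widen the ratios of their pairs, so these percentages are not comparable across pairs.

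Inflammatory transcripts differed between d0 and d1. IL1B, the inflammasome cytokine, was at 0.344 at d0 (exact Poisson 95% interval 0.172 to 0.615) and 2.16 at d1 (1.70 to 2.69). CXCL10 was at 0.0312 and 1.55, and CCL5, a T cell chemokine, at 0.156 and 1.24. CXCL10 also stood higher in all other barcodes of d1 (0.894 against 0.0225) and CCL5 did not (2.07 against 2.67), while IL1B was at 0.215 there against 0.0181. Of 11 cytokine and chemokine genes with enough counts 6 were past 2-fold higher and none lower, beside 4.06% and 1.95% of all genes. The genes that were lower were led by TGM3, a transglutaminase, at 1.66 and 0.332, STMN1 at 1.22 and 0.359, POLB, a DNA repair polymerase, at 1.87 and 0.636 and LYZ at 3.50 and 1.38. COL3A1 and IGFBP7, genes of stroma, headed those that were higher by size, and ADAMDEC1, a stromal protease, was also among the 10 named, with COL3A1 at 0 and 2.07 in the cells and at 0.192 and 6.66 in all other barcodes. The part of stromal RNA in these was not tested.

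Between d1 and d7, 9 of 20 stress and dissociation genes were past 2-fold higher and 1 lower, beside 6.57% and 2.63% of all genes. The cells of these libraries lay in different groups: 83.9% of the d1 cells and 1.52% of the d7 cells were in group 4, and its part in the ratios was not tested. HSPA6, an inducible chaperone, was at 0.276 (0.133 to 0.508) and 13.3 (12.7 to 14.0), HSP70.2 at 1.19 and 18.1, and DNAJB1, their co-chaperone, at 1.13 and 13.9. They were higher in all other barcodes too, where HSPA6 was at 0.793 and 10.6. Reads of the near-identical HSP70 genes could be split between copies. Interferon-response genes were past 2-fold higher in 8 of 16 and lower in none. IFI6 was at 0.781, 2.18, 13.8, 16.0 and 19.2 from d0 to d21, in order of age, and at 0.567, 3.24, 22.9, 25.5 and 32.5 in all other barcodes. Mature migratory genes were past 2-fold higher in 10 of 20 and lower in 1, with IL4I1 at 0.470 and 4.10 and CCR7 at 0.802 (0.537 to 1.15) and 2.32 (2.06 to 2.61). The group with most of these genes, group 7, had no cells at d1 and 16 at d7. PLAUR, a leading gene of group 4, at 2.76 and 0.219, and VCAM1, an adhesion molecule, at 1.49 and 0.0421, were among the genes that were lower. HBB led those that were higher, with most of its UMIs in the 1 cell described above, and S100A4, at 1.13 and 8.72, was another.

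From d7 to d14, 5 of 23 mature migratory genes were past 2-fold lower and none higher, beside 0.474% and 0.892% of all genes. Group 7, which leads with CCR7, CCL17 and CXCL9, made up 12.1% of the d7 cells and 3.90% of the d14 cells, and its part in these levels was not tested. CCR7 was at 2.32 and 0.640 (0.584 to 0.701), CCL17 at 1.36 and 0.218, and CXCL9, an interferon-gamma-induced chemokine, at 3.1 and 0.344. In all other barcodes CCL17 and CXCL9 were at 0.0308 and 0.0258 and at 0.119 and 0.135, so neither was lower there by 2-fold, while CCR7 was at 0.558 and 0.180. The 10 genes with the largest ratios upward were genes of fibroblasts and matrix such as COL3A1 (0.0168 and 2.27), CXCL14 (0.194 and 5.66), FN1 and ACTA2, and they were higher in all other barcodes too, with COL3A1 at 1.01 and 14.4. With the cells that held RNA of other types left out, the genes past 2-fold were 40 higher and 60 lower in place of 94 and 50.

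Between d14 and d21, 6 of 21 stress and dissociation genes were past 2-fold higher and none lower, beside 0.807% and 0.253% of all genes. From d7 to d14, in contrast, none had been higher and 5 of 21 lower, beside 0.892% and 0.474%. Group 2, which leads with CXCL2, CD83 and FOSB, made up 39.4% of the d7 cells, 9.14% of the d14 cells and 38.1% of the d21 cells, and its part in these levels was not tested. CXCL2, a neutrophil chemokine, was at 1.03 (0.961 to 1.11) and 5.39 (5.05 to 5.76), CD83, a marker of activated dendritic cells, at 1.12 and 5.57, and FOSB at 1.72 and 7.35. At d7 FOSB had been at 6.46, so its d14 level was the low one. The same held for CD83, which had been at 4.22, 7.52 and 3.04 from d0 to d7. In all other barcodes CXCL2 was at 0.559 and 0.859 and CD83 at 0.396 and 0.613, both short of 2-fold, whereas FOSB was at 1.33 and 4.97. HSP90AA1, a chaperone, was at 12.4, 14.4, 39.98, 43.5 and 95.1 over the 5 libraries, with all other barcodes at 9.86, 12.3, 33.1, 36.5 and 60.0. How far dissociation took part was not tested. LTB at 1.54 and 0.288, PCP4 at 0.504 and 0.112 and CCDC80 at 0.674 and 0.176, leading genes of groups 3 and 5, were among the genes that were lower, as were COL3A1 and CXCL14. Group 3 made up 15.6% of the d14 cells and 5.67% of the d21 cells, and group 5 made up 9.68% and 6.19%. The part of these groups in the ratios was not tested.

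**Figure D5:**
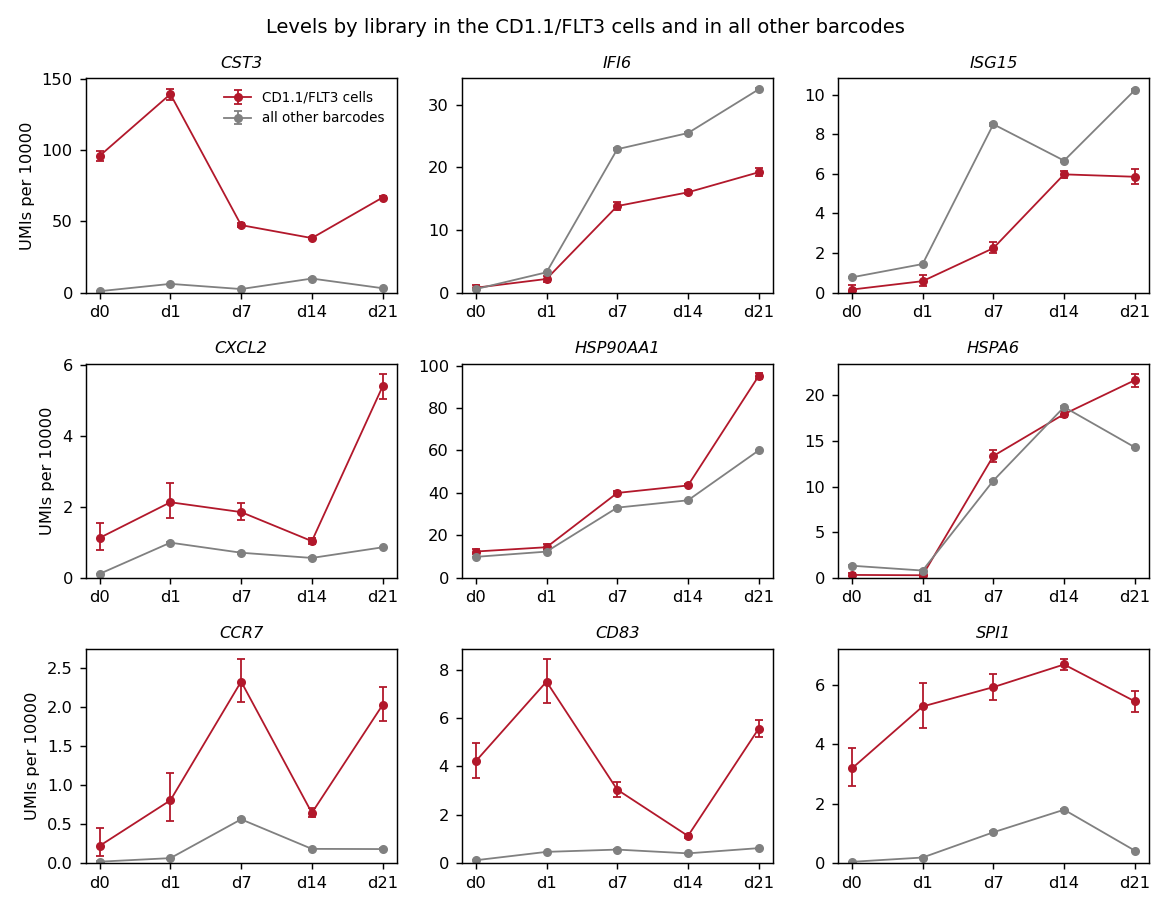
Levels of 9 genes (summed UMIs per 10000 counts) in the CD1.1/FLT3 cells (red) and in all other barcodes (grey) of each library; error bars are exact Poisson 95% intervals. IFI6 and HSP90AA1 are higher in later libraries in both, CCR7 has 2.32 at d7 and 2.02 at d21 with 0.640 between them, and CST3 lies between 38.2 and 139 in the cells and under 10 elsewhere.

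Of the homing and migration list 4 of 11 genes were past 2-fold higher at d7 than at d1 and 1 lower, beside 6.57% and 2.63% of all genes, and in the other pairs of libraries at most 1 gene in each direction. Of the tolerance and retinoid list at most 1 gene in each direction was past 2-fold in any pair, beside shares over all genes of 0.807% to 6.57% higher and 0.253% to 2.63% lower. TGFB1, the cytokine that favours regulatory T cells, was at 2.00, 1.82, 1.74, 1.86 and 1.95 over the 5 libraries, with overlapping Poisson intervals. RARA, a retinoic acid receptor, was at 0.531, 0.802, 0.673, 0.768 and 0.712, also with overlap. DHRS9, an enzyme of retinoic acid synthesis, was at 0.719, 0.912, 0.825, 0.793 (0.730 to 0.860) and 1.11 (0.959 to 1.28), so only d21 stood apart from d14. ITGA4, the integrin chain that pairs with beta 7 in gut homing, was at 0.562, 0.498, 1.14, 1.79 and 1.66, with d0 and d1 below the others, and ITGB7, its partner, was at 0.937, 1.41, 1.42, 1.84 and 1.51. Against the other classes, the counts of tolerance and retinoid genes that passed the edgeR test stand beside the shares over all genes (6.24% higher and 9.96% lower against C1Q cells, 12.2% and 15.5% against FCN1 cells, 8.85% and 6.2% against XCR1/CLEC9A cells). In that list 2 of 11 genes tested were higher and 4 lower than in C1Q cells, 1 of 14 higher and 3 lower than in FCN1 cells, and 4 of 14 higher and 1 lower than in XCR1/CLEC9A cells.

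Transcripts of other cell types differed between libraries, and not always in the order seen in all other barcodes. The 14 genes of the T cell list summed to 0.281, 0.276, 2.16, 2.13 and 2.70 per 10000 from d0 to d21, against 0.487, 0.546, 9.75, 11.2 and 15.2 in all other barcodes. The 9 fibroblast genes summed to 1.09, 9.76, 0.446, 8.76 and 3.21, against 0.560, 20.6, 3.50, 52.9 and 11.8, so d1 and d14 were high in both, and at d0, where ADAMDEC1 gave all the counts, the cells were above the rest. The 12 epithelial genes were at 2.97, 3.68, 1.69, 0.307 and 0.794, against 112, 83.5, 87.8, 13.5 and 19.6, but 1 of them is EPCAM, which the rule holds at 0 in the cells. The 7 endothelial genes summed to 0.875, 2.57, 1.14, 1.62 and 1.29, against 0.158, 8.68, 0.547, 1.25 and 0.667, so the cells were higher in each library but d1. PLVAP was the most abundant of them each time, and KDR and CLDN5, which define endothelium, had no UMI in the cells. Other endothelial genes were found, with counts for 5 of the 7 at d1. VWF, CDH5 and KDR together reached 4 UMIs in 1 cell at d1 and at most 1 UMI in a cell at d14. The 11 B cell genes in the matrix, of which the rule holds MS4A1 and CD79B at 0, summed to 0.656, 0.802, 0.572, 1.05 and 0.924, against 0.0814, 0.551, 3.8, 1.91 and 0.903, with BANK1 the most abundant in the cells. The part of these lists in the levels of other genes was not tested.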

How the data were processed

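Droplet single-cell libraries of cecal mucosa, 1 for each of 5 ages with 5 piglets pooled, were analysed. The deposited values were UMI counts, not normalized, of 20648 genes in each barcode, and the submitters' processing notes name Cell Ranger 3.1.0 and the susScr11 genome. The labels and the published methods name different versions of the capture kit. The matrices also hold more barcodes per library than the cell number forced in the published methods. Whether they were made with another cell number is not known. From these counts, barcodes with at least 200 genes were kept, which left 15218, 14142, 10272, 16177 and 16892 barcodes with 83394038, 80196009, 47921183, 91863866 and 69522315 counts from d0 to d21. No doublet caller was run, and cells with RNA of other types were left out in an alternative. The members, the gene lists (398 genes in 27 lists, 14 of them not in the matrix) and the tests were chosen with earlier results of these data known.

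For comparisons of classes, counts were summed per library and class, where both classes had at least 20 cells. The sums were tested with edgeR 4.0.16 in R 4.3.3 by the quasi-likelihood F test, with TMM scaling, the library as a block and Benjamini-Hochberg adjustment over all genes tested, the 13 rule genes left out. Both classes of a library come from the same pooled piglets, which is where the pairing comes from. The values after ±, called SE, were the absolute log2 fold change divided by the square root of the F statistic. DESeq2 1.42.0 was an alternative. Between ages there is no replicate and no test: consecutive libraries were compared by the ratio of levels with a pseudocount of 0.1, over genes with at least 20 UMIs, at 2-fold. Groups came from Leiden clustering (python-igraph 0.11.9; 1000 variable genes, 20 components, 15 neighbours, resolution 0.5). Genes were named from the lists, and by size as the 10 with the largest change each way, with an adjusted p under 0.05, 1 direction in every library and a mean level of at least 1 per 10000 for classes, and with at least 50 UMIs for ages; unnamed loci, ribosomal and mitochondrial genes were passed over. Alternatives were other scalings, filters, limits of the rule, pseudocounts, the fit with no block, and each library left out in turn. A few genes of the lists are not reported here.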

Additional observations from a re-analysis of the deposited data

How the results depend on the processing

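Counts of genes past the test against C1Q cells were 677 higher and 955 lower with no filter on low counts. Without the replicate block, that is without pairing the classes within a library, they were 144 and 321 against C1Q cells, 659 and 838 against FCN1 cells and 152 and 134 against XCR1/CLEC9A cells; of the named genes 56 then lost their call and 54 kept it against C1Q cells, 49 and 151 against FCN1 cells and 75 and 41 against XCR1/CLEC9A cells. Those lost include S100A4, DUSP5, NR4A3, IFI6 and GPR183 against C1Q cells, IRF4 against FCN1 cells, and CST3, IL1B, CXCL2, CD207, IRF4 and GPR183 against XCR1/CLEC9A cells. The DESeq2 Wald test gave 485 and 775 against FCN1 cells and 265 and 199 against XCR1/CLEC9A cells. Leaving out each library in turn gave 123 to 386 higher and 241 to 634 lower against C1Q cells, 693 to 1067 and 830 to 1445 against FCN1 cells, and 210 to 907 and 141 to 720 against XCR1/CLEC9A cells. Against XCR1/CLEC9A cells the log2 fold change ranged from -0.15 to 1.68 for LTB, from -2.89 to 0.23 for LOC100152327 and from -0.086 to 1.07 for IRF7, with the sign turned without d14 in each. A minimum of 10 cells added no library for C1Q or FCN1 cells, so it gave no further value there.

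The log2 ratio of shares kept its sign under every alternative. For d14 over d0 it was 2.84 with CD1.1 as the only entry gene, 2.20 with cells under 20% mitochondrial counts and 2.78 after thinning. For d14 over d7 it was 1.57 with CD1.1 alone, 2.20 with FLT3 alone and 1.46 after thinning, and for d21 over d14 it was -1.77, -2.27 and -1.76. With a pseudocount of 1 the genes past 2-fold were 12 higher and 1 lower from d0 to d1, 26 and 30 from d1 to d7, 7 and 8 from d7 to d14, and 18 and 4 from d14 to d21. With no filter there were 577 higher and 271 lower from d0 to d1 and 370 lower from d1 to d7. With mitochondrial and ribosomal genes out of the denominator 110 were lower from d0 to d1 and 44 from d14 to d21, with an SLA limit of 40 UMIs 42 were lower from d14 to d21, and without the cells with RNA of other types 40 were higher from d7 to d14. Apart from the alternatives built on fewer cells, genes or libraries, the cause was not tested. Leiden at resolution 1 gave 11 groups and with 10 components 9, which kept 41.4% and 47.4% of the cells of group 1 together. With 1 library per age, counting error is the only error known for the ages.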
